A study of Mus musculus with 12 samples.

Results

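The genes described here are 10 control genes of the FoxO, hypoxia and glycolysis programs that are known to limit reactive oxygen in blood stem cells: Foxo1, Foxo3, Foxo4, Hif1a, Epas1, Pdk1, Pdk2, Ldha, Slc2a1 and Pgk1. They were chosen by name, with earlier results of these data known. All 10 have a probe set that carries no other gene symbol, among 22180 genes so measured, and for a gene with several such probe sets the brightest by its mean over all arrays was used. RNA came from LSK cells, which are lineage-negative bone marrow cells that carry both Sca1 and Kit, sorted from C57BL/6 mice and hybridised to 12 arrays. The mice were Mll5+/+ (wild type) or Mll5-/- (mutant), and mice of each genotype drank either plain water (mock) or water with N-acetyl-L-cysteine (NAC), which lowers reactive oxygen, at 1 g per liter. NAC was begun when the Mll5+/- parents were mated and kept up for the whole life of the offspring, so the NAC mice were exposed before birth. Each of the 4 groups had 3 arrays. The labels give neither the age of the mice nor how many stand behind an array, nor whether arrays came from separate mice. The p-values therefore speak only of the scatter among these arrays, and that scatter may be technical.

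FoxO proteins are transcription factors that are held in the cytoplasm when insulin and growth factor signals activate AKT, and that enter the nucleus when these signals are low. In haematopoietic stem cells they are known to keep the cells quiescent and to turn on antioxidant enzymes. HIF proteins are the oxygen-labile transcription factors of the hypoxia response. They raise glucose uptake, glycolysis and lactate production, and through the pyruvate dehydrogenase kinases they hold pyruvate back from the mitochondria, a state that stem cells of the bone marrow niche are known to favour.

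The hypoxia arm of this program is read from DNA through a short core motif, and stretches of 5 promoters that hold it are shown because Slc2a1, Ldha, Pgk1 and Pdk1 are textbook HIF targets and Hif1a encodes the factor itself. The sequences are from RefSeq on GRCm38.p6, whose promoter table has windows for 8 of the 10 genes and none for Foxo4 and Epas1. Each stretch has 60 bases, written 5′ to 3′ along the gene's strand. It lies inside the table's window and ends before the transcript start of that window. The letters ACGTG or GCGTG, on either strand, are in capitals.
Slc2a1 (chr4:119108669-119108728, plus strand): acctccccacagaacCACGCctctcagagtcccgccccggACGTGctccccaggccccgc
Ldha (chr7:46845735-46845794, plus strand): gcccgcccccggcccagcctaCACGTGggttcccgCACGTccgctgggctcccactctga
Pgk1 (chrX:106186932-106186991, plus strand): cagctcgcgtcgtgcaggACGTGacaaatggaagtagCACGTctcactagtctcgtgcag
Pdk1 (chr2:71873118-71873177, plus strand): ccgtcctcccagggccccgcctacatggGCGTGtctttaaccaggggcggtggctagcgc
Hif1a (chr12:73907705-73907764, plus strand): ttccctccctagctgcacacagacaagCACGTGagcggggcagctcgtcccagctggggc
The stretches of Ldha and Hif1a lie 3461 and 6381 bases inside the annotated genes, before a later transcript start, and the other 3 lie before the gene. The stretch of Pgk1 begins 168 bases before the start and holds the motif once on each strand, and in Ldha and Hif1a overlapping matches on the 2 strands form the run CACGTG. In windows from 250 bases before to 50 bases after the start, ACGTG or GCGTG was found in 9 of the 11 windows of the 8 genes, against 43.8% of 32851 windows of all genes. Each of the 8 genes had a match, including Foxo1 and Foxo3, which had GCGTG only. ACGTG alone was found in 5 of the 11 windows and in 19.6% of all windows. GTAAACA, the core letters that FoxO proteins bind, was found on neither strand of the 11 windows, and in 3.6% of all windows. These are matches of letters in short windows.

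No gene of the 10 passed limma's test in any of the 7 comparisons made, with p-values adjusted over all 22180 genes. In mock, 0 of the 10 passed between the genotypes, against 0.00902% of all genes, and in NAC 0 passed, against 0% of all genes. NAC against mock gave 0 of the 10 in the mutant (0.00451% of all genes), 0 in wild type (0.00902%) and 0 over both genotypes (0.00451%). The genotype over both treatments gave 0 (0.00902%), as did the interaction of genotype and NAC (0%). Single genes thus seldom passed anywhere on these arrays. At an unadjusted p under 0.05 the count was 1 of 10 in NAC against mock in the mutant, which was Pdk2 (5.86% of all genes), 1 in the genotype over both treatments, which was Foxo3 (9.08%), and 1 in NAC over both genotypes, again Pdk2 (7.43%). It was 0 between the genotypes in mock (6.63%) and in NAC (7.17%), for NAC in wild type (5.92%) and for the interaction (4.21%). Shares of 1 in 10 are near these backgrounds.

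The signals of the 10 genes are given on the log2 scale of the deposited values, on which the median gene had a mean of 3.17. Array medians lay between 2.89 and 2.96, and correlations between arrays ran from 0.976 to 0.988. The arrays with the lowest limma weights were replicate 1 of wild-type mock (0.71) and replicate 1 of mutant NAC (0.54), and no array was left out of the main values. Most differences were so small that leaving out 1 array, these or another, moved some of them by over 1.5 times or turned their sign, and main examples are given with each gene. Kmt2e, the gene now named for Mll5, lay between 7.37 and 7.78 on the 6 wild-type arrays and between 6.93 and 7.51 on the 6 mutant arrays, and its log2 difference over both treatments was -0.34 (SE 0.12, adjusted p = 0.419). The part of the gene that its probe set reads is not given, so this does not check the genotype labels. Kit, which defines the sort, lay between 8.74 and 9.24. Ly6a, which encodes Sca1, has no single-symbol probe set, and all 8 measured T and NK cell markers were under the median gene level.

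**Figure D1:**
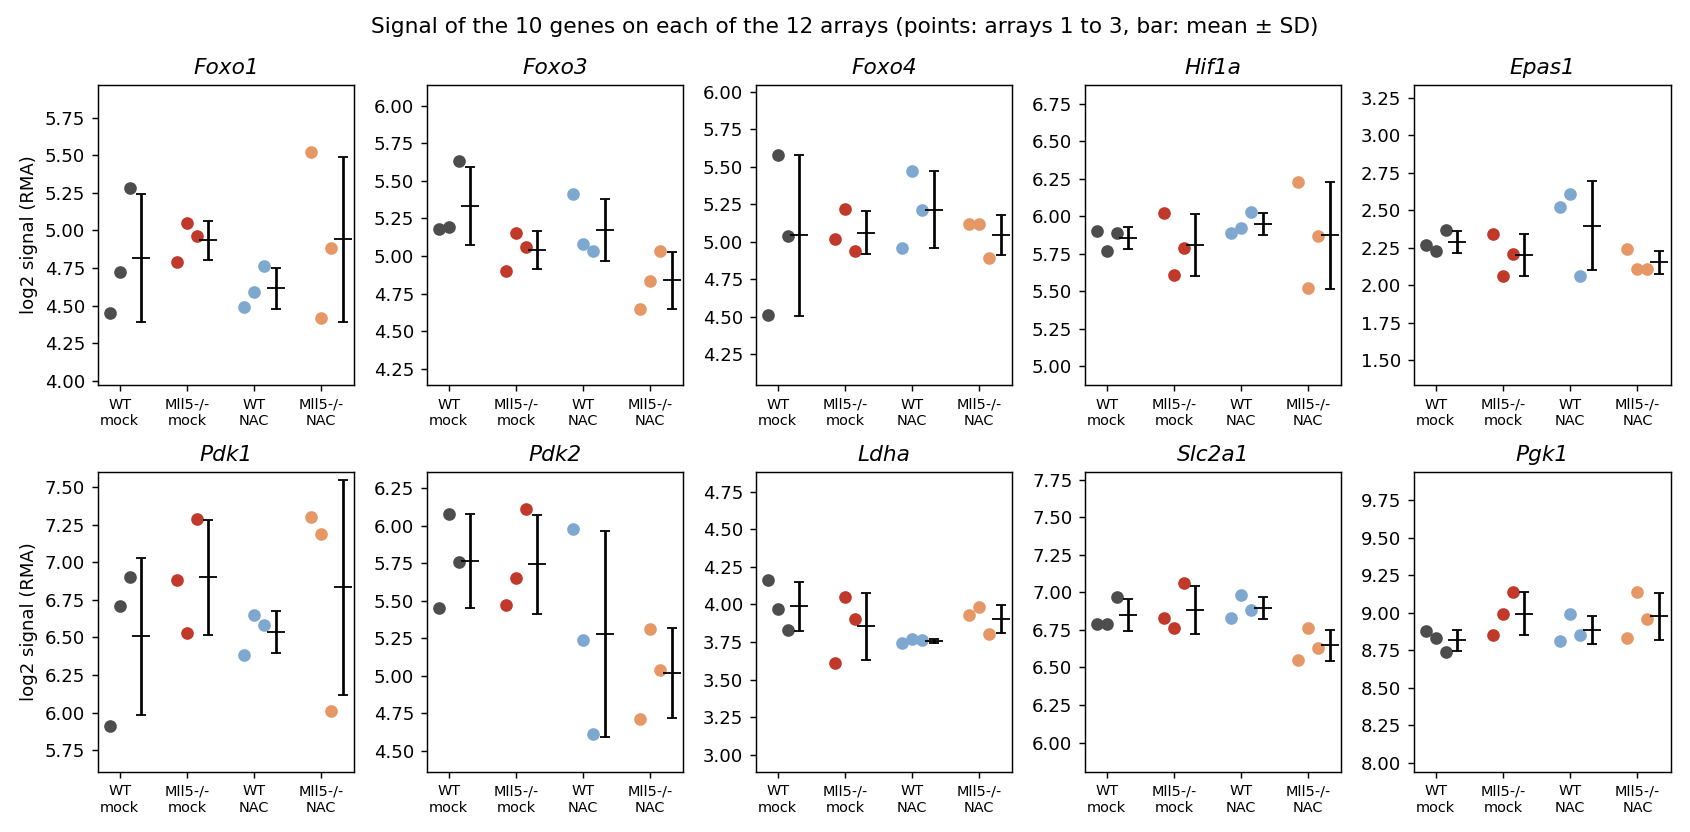
Log2 signal (vertical axis, each panel spanning the same 2 log2 units) of the 10 genes on the 12 arrays, with 3 points per group and the mean ± SD beside them. Foxo3 is lower in the mutant groups (means 5.04 and 4.84) than in the wild-type groups (5.33 and 5.17), Pdk2 is lower with NAC (5.28 and 5.02) than in mock (5.76 and 5.74), and Slc2a1 is lowest in mutant NAC (6.65).

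Foxo3, the FoxO member on which quiescence of adult stem cells is known to depend most, had the lowest p of the genotype comparison among the 10 genes. Its signals were 5.18, 5.19 and 5.63 in wild-type mock and 4.90, 5.15 and 5.06 in mutant mock. With NAC they were 5.41, 5.08 and 5.03 in wild type and 4.65, 4.83 and 5.03 in the mutant. Every mutant mock array thus lay under every wild-type mock array, while with NAC the groups met at a shared value of 5.03. In mock the log2 difference was -0.30 (SE 0.16, 95% interval -0.65 to 0.05, adjusted p = 0.802). In NAC it was -0.34 (SE 0.16, interval -0.69 to 0.01, adjusted p = 0.709). Over both treatments it was -0.32 (SE 0.11, interval -0.56 to -0.07), with an unadjusted p of 0.0161 that became an adjusted p = 0.423 in limma, and 3.8% of all genes had a larger moderated t. The 6 mutant and 6 wild-type arrays overlapped, as they did for all 10 genes (0.546% of all genes did not overlap). Leaving out 1 array at a time gave values from -0.37 to -0.24 over both treatments, the mock value was -0.15 without replicate 3 of wild-type mock, and the NAC value -0.22 without replicate 1 of wild-type NAC. The interaction was -0.04 (SE 0.23), with an interval of -0.53 to 0.45. In order of their means the groups ran from wild-type mock (5.33) through wild-type NAC (5.17) and mutant mock (5.04) to mutant NAC (4.84), and each neighbour in this order overlapped the next.

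Markers of other progenitors also differed in direction between genotypes. All 10 measured lymphoid priming markers had a lower mean in the mutant over both treatments, against 10863 of 22180 genes. An unadjusted p under 0.05 in limma was found for 9 of the 10 markers (9.08% of all genes), and 0 of the 10 passed over all genes. Their mean signal per array was 6.22 to 6.92 in wild-type mock, 5.57 to 6.23 in mutant mock, 6.59 to 6.83 in wild-type NAC and 5.64 to 5.96 in mutant NAC, and 1 of the 10 was under the median gene level. All 9 megakaryocyte markers had a higher mean in the mutant over both treatments, against 11212 of 22180 genes. Of these markers 1 passed the threshold over all genes (0.00902% of all genes did), and 1 was under the median gene level. An unadjusted p under 0.05 was found for 7 of the 9 markers (9.08% of all genes). Their means per array were 4.65 to 4.92 in wild-type mock and 4.99 to 5.41 in mutant mock. With NAC they were 4.52 to 4.74 in wild type and 5.29 to 5.35 in the mutant. Their part in the values of Foxo3 was not tested. In sorted bulk cells, fewer cells of a type and less RNA per cell cannot be told apart.

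Foxo1, which in lymphoid cells also drives genes of early B cell development, was scattered. Its signals were 4.45, 4.72 and 5.28 in wild-type mock, 4.79, 5.05 and 4.96 in mutant mock, 4.49, 4.59 and 4.76 in wild-type NAC, and 5.52, 4.42 and 4.88 in mutant NAC. The mutant NAC group alone spanned from the lowest to the highest of the 12 values. In mock the mutant differed from wild type by 0.12 (SE 0.25, adjusted p = 0.963), and by -0.07 without replicate 1 of wild-type mock and 0.35 without its replicate 3. In NAC it differed by 0.33 (SE 0.25, adjusted p = 0.823), which was 0.04 without mutant NAC replicate 1 and 0.59 without mutant NAC replicate 2. The dimmer probe set of Foxo1, at 3.04 to 4.38, gave -0.53 (SE 0.36) for the genotype in NAC, the opposite sign, and the signals of both probe sets were uncorrelated over the 12 arrays (r = -0.0049, a description of arrays that share 4 groups). The sign of the Foxo1 difference thus depended on the probe set. Wild-type NAC was the lowest group (4.61 ± 0.14, SD, n = 3) and mutant NAC the highest (4.94 ± 0.55), and neighbours in the order overlapped.

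Foxo4, the X-linked member of the family, differed little between group means, with signals of 4.51, 5.58 and 5.04 in wild-type mock and 5.02, 5.22 and 4.94 in mutant mock. With NAC it had 4.96, 5.47 and 5.21 in wild type and 5.12, 5.12 and 4.89 in the mutant. Its widest group was wild-type mock, with both the lowest and the highest of all arrays. The group means ran from 5.04 to 5.21, and no pair of groups was separate. The genotype difference was 0.02 (SE 0.22, interval -0.47 to 0.50) in mock, where leaving out replicate 1 of wild-type mock gave -0.25 and leaving out replicate 2 gave 0.28, and -0.17 (SE 0.22, interval -0.65 to 0.31) in NAC. The NAC value was -0.30 without replicate 1 of wild-type NAC and -0.04 without its replicate 2.

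Hif1a, the oxygen-regulated subunit of HIF-1, had signals of 5.90, 5.77 and 5.89 in wild-type mock, 6.02, 5.61 and 5.79 in mutant mock, 5.89, 5.92 and 6.03 in wild-type NAC, and 6.23, 5.52 and 5.87 in mutant NAC. The 4 group means lay within 0.14 of each other, from 5.81 to 5.95, and every pair of groups overlapped. Wild-type arrays were close together (SD 0.07 in both treatments, n = 3 each) and mutant arrays were wider apart (SD 0.21 in mock and 0.36 in NAC). This difference in spread was noticed in the values of the probe set used and was not tested. In the dimmer single-symbol probe set of Hif1a the mock values ran from 3.52 to 4.07 in wild type and from 3.32 to 4.21 in the mutant. With NAC they ran from 3.59 to 4.14 in wild type and from 3.41 to 3.95 in the mutant, which was not wider. For the probe set used, the genotype difference was -0.05 (SE 0.17, interval -0.41 to 0.32) in mock and -0.07 (SE 0.17, interval -0.44 to 0.29) in NAC. Their signs rested on single arrays: the mock value was -0.15 without replicate 1 of mutant mock and 0.05 without its replicate 2, and the NAC value was -0.25 without replicate 1 of mutant NAC and 0.10 without its replicate 2. NAC against mock gave 0.07 (SE 0.17) in the mutant and 0.09 (SE 0.17) in wild type. The first of these was -0.11 without replicate 1 of mutant NAC and 0.24 without replicate 2. On the fold scale these intervals reach from 1.35-fold lower to 1.37-fold higher at their widest, so changes beyond that range lie outside the intervals of the 4 comparisons. HIF proteins are controlled mainly through their breakdown, which arrays do not measure.

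Epas1 encodes HIF-2 alpha, the second oxygen-regulated subunit, best known from endothelium. Its probe set was dim, with signals of 2.06 to 2.61 on all 12 arrays, under the median gene level of 3.17, and it was the only 1 of the 10 genes with a mean under that level. Wild-type mock had 2.27, 2.23 and 2.37, mutant mock 2.34, 2.06 and 2.21, wild-type NAC 2.52, 2.61 and 2.06, and mutant NAC 2.24, 2.11 and 2.11. The highest values were those of wild-type NAC replicates 1 and 2, and the groups overlapped in every pair. The genotype difference over both treatments was -0.17 (SE 0.10, adjusted p = 0.665), and -0.25 without replicate 3 of wild-type NAC. At such a signal a difference in RNA can be compressed, and the array gives no level for it. Of 11 endothelial markers 4 were under the median gene level too, and the list's mean per array lay between 3.95 and 4.38 over all groups.

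**Figure D2:**
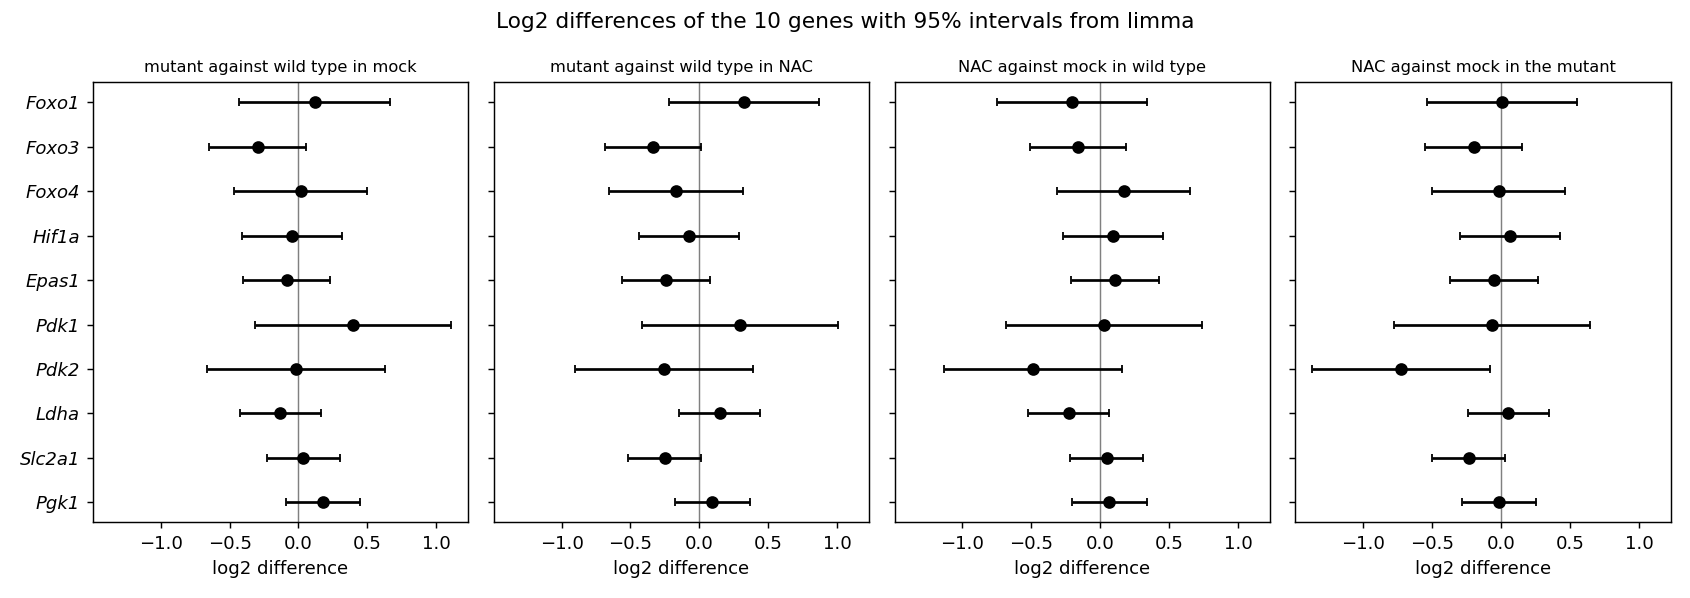
Log2 differences (horizontal axis) of the 10 genes in 4 comparisons, each with its 95% interval from limma. Only the interval of Pdk2 for NAC against mock in the mutant (-1.37 to -0.08) leaves out 0 before adjustment for many genes, and the intervals are widest for Pdk1 and Pdk2 and narrowest for Slc2a1 and Pgk1.

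Pdk1 and Pdk2 encode kinases that switch off pyruvate dehydrogenase and so keep pyruvate from the mitochondria. Pdk2 had the largest NAC difference of the 10 genes. Its signals in mock were 5.45, 6.08 and 5.76 in wild type and 5.47, 5.65 and 6.11 in the mutant. With NAC they were 5.98, 5.24 and 4.61 in wild type and 4.71, 5.31 and 5.04 in the mutant. Wild-type NAC replicate 1 lay among the mock arrays, and the other 5 NAC arrays lay under all 6 mock arrays. NAC against mock gave a log2 difference of -0.72 in the mutant (SE 0.30, interval -1.37 to -0.08, unadjusted p = 0.031, adjusted p = 0.829 in limma), where the groups did not overlap, and -0.49 in wild type (SE 0.30, interval -1.13 to 0.16, adjusted p = 0.879), where they did. Over both genotypes it was -0.61 (SE 0.21, 1.52-fold lower, unadjusted p = 0.0134, adjusted p = 0.512), and 2.6% of all genes had a larger moderated t. Without wild-type NAC replicate 1 the value over both genotypes was -0.78, and without wild-type NAC replicate 3 it was -0.44. The wild-type value was -0.84 and -0.15 in these cases. The genotype difference of Pdk2 was -0.02 (SE 0.30) in mock and -0.26 (SE 0.30) in NAC, and the interaction -0.24 (SE 0.42). Without wild-type NAC replicate 1 the last 2 were 0.10 and 0.12, and without wild-type NAC replicate 3 they were -0.59 and -0.57. The mock value ran from -0.20 without mutant mock replicate 3 to 0.14 without wild-type mock replicate 2, so the genotype difference of Pdk2 had no steady sign.

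Progenitor markers moved with NAC as well. All 10 measured stem and LSK markers were lower with NAC over both genotypes, against 11129 of 22180 genes, with a median log2 difference of -0.33. Their mean signal per array was 6.85 to 7.24 in wild-type mock, 7.003 to 7.21 in mutant mock, 6.74 to 6.90 in wild-type NAC and 6.47 to 6.89 in mutant NAC. Of 10 granulocyte and monocyte progenitor markers 9 were higher with NAC, against 10945 of 22180 genes, with a median of 0.58. The means per array of these 10 markers were 8.19 to 9.11 in wild-type mock and 7.49 to 8.77 in mutant mock. With NAC they were 8.90 to 9.09 in wild type and 8.50 to 9.05 in the mutant. None of either list was under the median gene level, and no member passed over all genes (0.00451% of all genes did). An unadjusted p under 0.05 in limma was found for 8 of the 10 stem and LSK markers (7.43% of all genes). For the granulocyte and monocyte progenitor markers it was 7 of 10. Their part in the values of Pdk2 was not tested.

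Pdk1, the HIF-induced kinase of the family, had signals of 5.91, 6.71 and 6.90 in wild-type mock, 6.88, 6.53 and 7.29 in mutant mock, 6.38, 6.65 and 6.58 in wild-type NAC, and 7.30, 7.19 and 6.01 in mutant NAC. It was the most variable of the 10 genes within groups, with a residual SD of 0.49 against a median of 0.20 over all genes, and every pair of groups overlapped. The genotype difference was 0.39 (SE 0.33, interval -0.32 to 1.10) in mock and 0.30 (SE 0.33, interval -0.41 to 1.01) in NAC. Leaving out replicate 1 of wild-type mock took the first to 0.10 and leaving out replicate 3 took it to 0.59, and the second was 0.71 without mutant NAC replicate 3 and 0.06 without mutant NAC replicate 1. The second probe set of Pdk1 is nearly as bright, at 6.18 to 6.60, and much steadier (SD 0.13 over the 12 arrays against 0.45). It gave -0.12 for the genotype in mock (SE 0.12) and -0.12 in NAC (SE 0.12), opposite in sign to the brighter probe set. The direction of Pdk1 thus rests on which probe set is read.

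Slc2a1 encodes GLUT1, the glucose transporter through which blood progenitors take up glucose. It was among the steadiest of the 10 genes, with a residual SD of 0.11. Its signals were 6.79, 6.79 and 6.97 in wild-type mock, 6.83, 6.76 and 7.06 in mutant mock, 6.83, 6.98 and 6.88 in wild-type NAC, and 6.55, 6.76 and 6.63 in mutant NAC. All 3 mutant NAC arrays lay under all wild-type mock and all wild-type NAC arrays, and they met the mutant mock arrays at a shared value of 6.76. In means, mutant NAC (6.65 ± 0.11, SD, n = 3) was followed by wild-type mock (6.85 ± 0.10), mutant mock (6.88 ± 0.16) and wild-type NAC (6.90 ± 0.08), and the last 3 groups overlapped. The genotype difference was 0.03 (SE 0.12, interval -0.23 to 0.30) in mock and -0.25 (SE 0.12, interval -0.51 to 0.01, adjusted p = 0.715) in NAC. Within the mutant, NAC against mock gave -0.24 (SE 0.12, adjusted p = 0.877), which was -0.15 without mutant mock replicate 3, and the interaction was -0.28 (SE 0.17, interval -0.66 to 0.09, unadjusted p = 0.126, adjusted p = 0.999), so that a genotype effect that depends on NAC was not shown. In the mean of both of its probe sets the genotype difference in NAC was -0.10 (-0.25 with the brighter alone). The 7 measured erythroid markers, 1 of them under the median gene level, had mean signals per array of 5.59 to 5.97 in mutant NAC, above the 5.07 to 5.55 of wild-type mock and the 5.09 to 5.57 of mutant mock and overlapping the 5.29 to 5.65 of wild-type NAC. For NAC against mock in the mutant 5 of these markers were higher and 2 lower, and the counts were the same for the genotype in NAC. The part of the erythroid markers in the values of Slc2a1 was not tested.

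Pgk1, the enzyme of the first ATP-yielding step of glycolysis, was steady across all arrays. It had signals of 8.88, 8.83 and 8.74 in wild-type mock, 8.85, 8.99 and 9.14 in mutant mock, 8.81, 8.99 and 8.85 in wild-type NAC, and 8.83, 9.14 and 8.96 in mutant NAC. Mutant means were above wild-type means in both treatments, and the groups overlapped. The genotype difference was 0.18 (SE 0.13, interval -0.09 to 0.45) in mock and 0.09 (SE 0.13, interval -0.18 to 0.36) in NAC, and over both it was 0.14 (SE 0.09, adjusted p = 0.679). The mock value was 0.10 without replicate 3 of mutant mock, and the NAC value was 0.17 without replicate 1 of mutant NAC and 0.01 without its replicate 2. NAC against mock gave -0.02 (SE 0.13) in the mutant and 0.07 (SE 0.13) in wild type. Over both treatments or genotypes the intervals of Pgk1 reach at most 1.25-fold.

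Ldha, which turns pyruvate into lactate, gave a low signal that was close to the median gene level: 4.16, 3.97 and 3.83 in wild-type mock, 3.61, 4.05 and 3.90 in mutant mock, 3.74, 3.77 and 3.76 in wild-type NAC, and 3.93, 3.98 and 3.8 in mutant NAC. All wild-type NAC arrays lay under all wild-type mock and all mutant NAC arrays. The differences were small: NAC against mock in wild type gave -0.23 (SE 0.14, adjusted p = 0.875), and the mutant differed from wild type by -0.13 (SE 0.14) without NAC and by 0.15 (SE 0.14, adjusted p = 0.864) with it. The interaction was 0.28 (SE 0.19, adjusted p = 0.999). Without replicate 1 of wild-type mock the NAC difference in wild type was -0.14. Without replicate 1 of mutant mock the genotype difference in mock was -0.01 and the interaction 0.16, and without replicate 2 of mutant mock the former was -0.23. The transcript part that the Ldha probe set reads is not given, and at a low signal a difference in RNA can be compressed.

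Across the 10 genes, groups that did not overlap were counted beside the same count over all genes. It was 1 of 10 for the genotype in mock (Foxo3, against 11.4% of all genes), 2 of 10 in NAC (Slc2a1 lower and Ldha higher, against 12.4%), 1 of 10 for NAC in the mutant (Pdk2, against 10.2%) and 1 of 10 for NAC in wild type (Ldha, against 10.7%). No gene of the 10 had separate groups for NAC over both genotypes (0.338% of all genes). In mock 5 of the 10 genes were higher and 5 lower in the mutant, with a median log2 difference of -0.00 (0.00 over all genes), and in NAC 4 were higher and 6 lower, with a median of -0.12 (0.01 over all genes). NAC over both genotypes gave 4 higher and 6 lower and a median of -0.05 (0.00 over all genes). Over both treatments the genotype difference was -0.32 for Foxo3, -0.08 for Foxo4 and 0.22 for Foxo1, whose other probe set gave -0.28. It was 0.14 for Pgk1, 0.01 for Ldha and -0.11 for Slc2a1, each with an interval that holds 0. Differences between the genes were not tested.

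**Figure D3:**
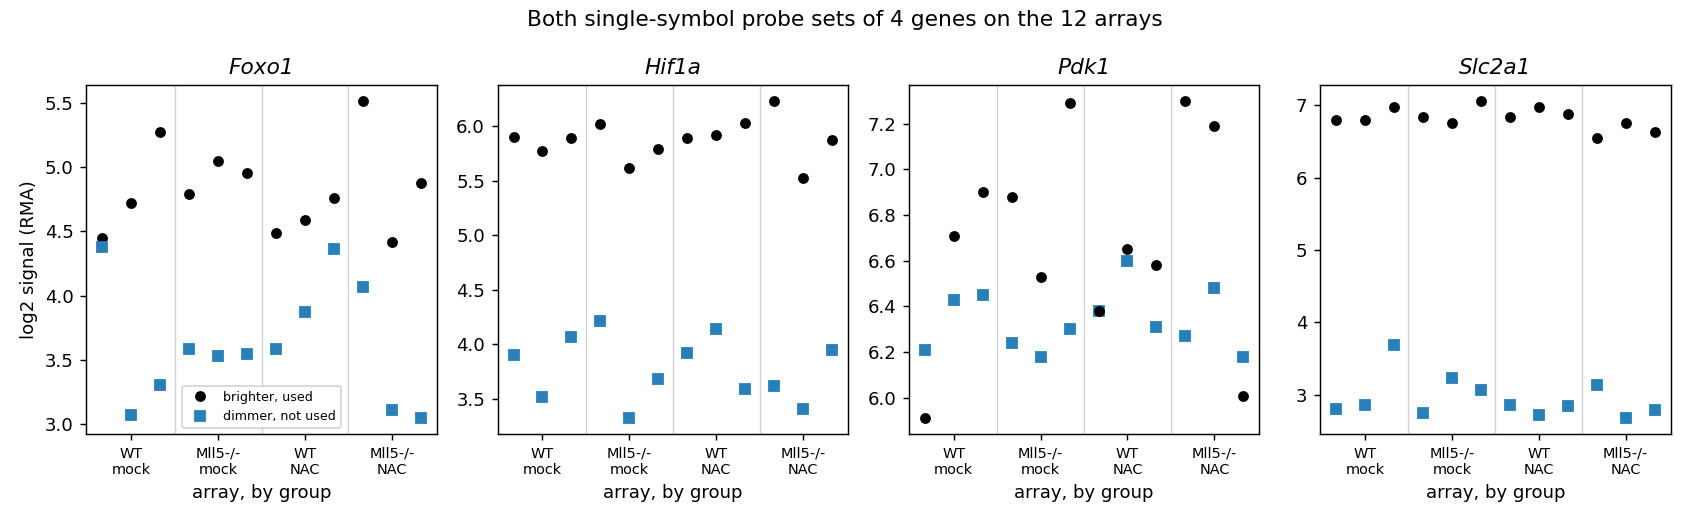
Log2 signal (vertical axis) of the brighter probe set (circles, used) and of the dimmer probe set (squares, not used) with a single gene symbol, for the 4 genes that have both, on the 12 arrays grouped along the horizontal axis. For Pdk1 both lie close in level while the brighter scatters more (5.91 to 7.30 against 6.18 to 6.60), and for Slc2a1 the dimmer lies at 2.67 to 3.68.

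The genes around these 10 were read from lists of known regulators and targets. None of their members passed over all genes in any of the 7 comparisons. FoxO target genes were on the lower side in both main directions: of 23 measured, 19 were lower in the mutant over both treatments, with a median log2 difference of -0.26, and 18 were lower with NAC over both genotypes, with a median of -0.22. Over all genes 10863 of 22180 were lower in the mutant and 11129 with NAC, with medians of 0.00 and -0.00. At an unadjusted p under 0.05 there were 10 of the 23 for the genotype (9.08% of all genes) and 11 for NAC (7.43%). By treatment the genotype medians were -0.25 in mock and -0.26 in NAC. The list holds Il7r and Rag2, which are lymphoid priming genes too; without them the medians were -0.20 for the genotype, with 17 of 21 lower, and -0.22 for NAC, with 18 of 21 lower. Without the 2 arrays of lowest weight the medians of the whole list were -0.21 and -0.27. Its genes were not tested as a set, and the part of the lymphoid, megakaryocyte and stem cell markers given above in these values was not tested.

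Among the FoxO targets, Sesn3, a sestrin that restrains mTOR signalling and reactive oxygen, had signals of 6.61 ± 0.14 (SD, n = 3) in wild-type mock, 5.81 ± 0.25 in mutant mock, 6.06 ± 0.31 in wild-type NAC and 5.55 ± 0.32 in mutant NAC. Its genotype difference over both treatments was -0.66 (SE 0.14, adjusted p = 0.185) and its NAC difference -0.41 (SE 0.14, adjusted p = 0.505). Txnip, which binds thioredoxin and limits glucose uptake, had 9.53 ± 0.15, 9.28 ± 0.02, 9.10 ± 0.09 and 8.84 ± 0.26 in the same order of groups. All 6 NAC arrays lay under all 6 mock arrays, with a difference of -0.44 (SE 0.10, adjusted p = 0.286). Such a lack of overlap was found for 1 of the 23 targets (0.338% of all genes), and Txnip was named partly for its large NAC t in these same values. Bcl2l11, the death-promoting BIM, differed by -0.53 (SE 0.14, adjusted p = 0.298) between genotypes and by 0.06 (SE 0.14) with NAC. Fbxo32, a ubiquitin ligase known from muscle atrophy, differed by -0.52 (SE 0.16) between genotypes and by -0.51 (SE 0.16) with NAC. Of the antioxidant targets, singled out after their values were seen, Sod2, the mitochondrial superoxide dismutase, differed by 0.10 (SE 0.14) between genotypes and Cat, catalase, by -0.04 (SE 0.10). Cdkn1a and Cited2, with Txnip the brightest of the list, had genotype differences of -0.18 (SE 0.14) and -0.19 (SE 0.15).

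Of 22 FoxO regulators, 12 were lower and 10 higher in the mutant over both treatments, with a median of -0.01. Xpo1, the exportin that carries FoxO proteins out of the nucleus, was higher on all 6 mutant arrays than on all 6 wild-type arrays, with a log2 difference of 0.38 (SE 0.11, adjusted p = 0.31). Such a lack of overlap was found for 1 of the 22 regulators (0.546% of all genes), and Xpo1 was named for its large genotype t in these same values. Ywhaz, a 14-3-3 protein that holds phosphorylated FoxO in the cytoplasm, differed by 0.23 (SE 0.09, adjusted p = 0.477). With NAC the median of the list was -0.04, and Pik3ca and Pik3r1, subunits of the kinase upstream of AKT, differed by -0.18 (SE 0.09) and -0.15 (SE 0.08). Crebbp, a coactivator shared with the HIF list, differed by -0.15 (SE 0.11) between genotypes.

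The 17 HIF regulators and partners had medians of -0.03 for the genotype and 0.04 for NAC. Cul2, the scaffold of the ligase that marks HIF for breakdown, differed by 0.32 (SE 0.13, adjusted p = 0.492) between genotypes and by 0.24 (SE 0.13) with NAC, and Vhl, its substrate receptor, by -0.31 (SE 0.18) and -0.22 (SE 0.18). Meis1, a homeobox factor known to induce Hif1a in stem cells, differed by -0.35 with NAC (SE 0.10, adjusted p = 0.44) and by 0.01 (SE 0.10) between genotypes. It is also on the list of stem and LSK markers given above, where the same values are counted. Elob, an elongin subunit of the same ligase and the brightest of the list, differed by 0.005 (SE 0.10) between genotypes. The 20 HIF targets outside glycolysis had medians of 0.00 and -0.01. Vegfa, the endothelial growth factor, differed by -0.43 (SE 0.20, adjusted p = 0.547) between genotypes. With NAC, Ero1a, an oxidase of protein folding, differed by 0.57 (SE 0.20, adjusted p = 0.514) and Higd1a, a mitochondrial hypoxia gene, by 0.39 (SE 0.16). Mxi1, a partner and rival of MYC, Ndrg1 and the chemokine receptor Cxcr4, the brightest of the list, had genotype differences of 0.19 (SE 0.19), 0.26 (SE 0.19) and -0.18 (SE 0.09).

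**Figure D4:**
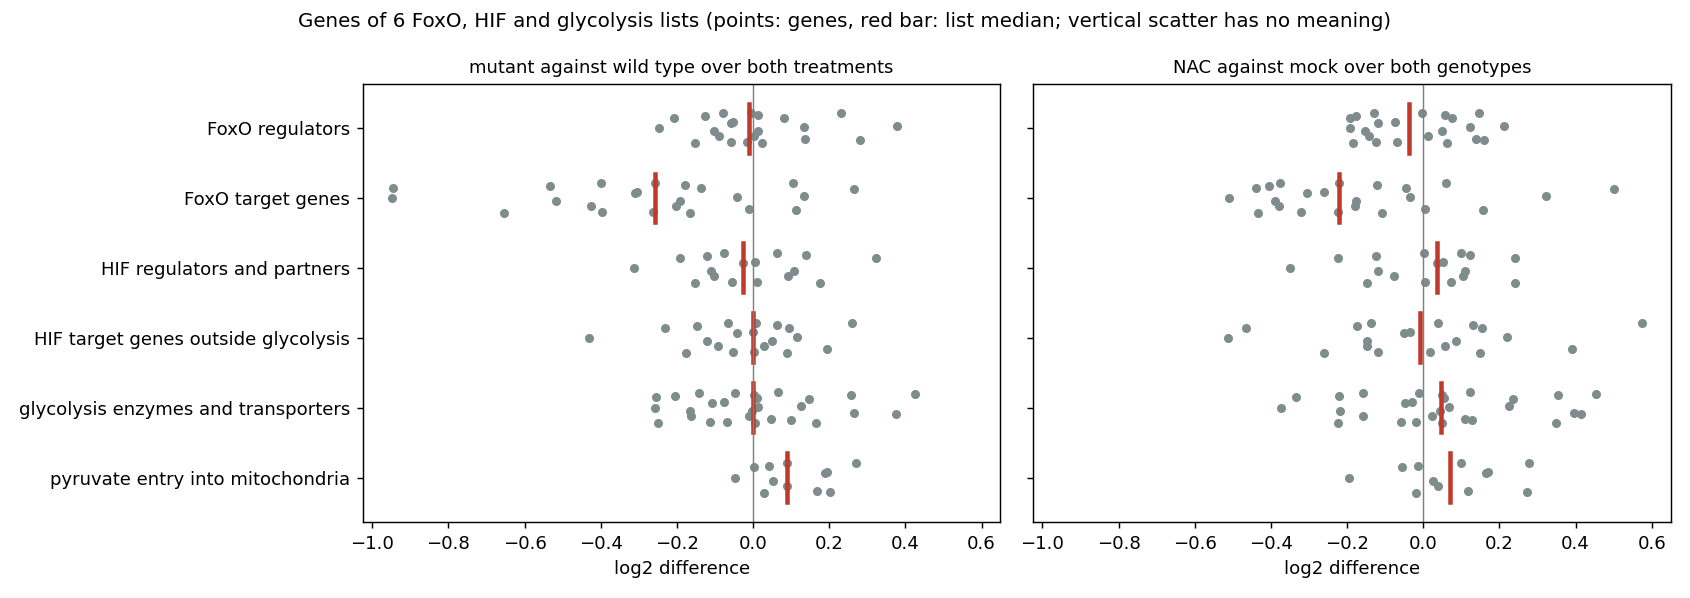
Log2 differences (horizontal axis) of the measured genes of 6 lists, for the genotype over both treatments (left) and for NAC over both genotypes (right), with the median of each list as a red bar. The median of FoxO target genes lies at -0.26 and -0.22, and those of the other 5 lists lie between -0.04 and 0.09.

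The 28 glycolysis enzymes and transporters divided evenly between genotypes, with 14 higher and 14 lower in the mutant and a median of 0. Pgam1, a mutase of lower glycolysis, had 7.84 ± 0.04 (SD, n = 3) in wild-type mock and 8.31 ± 0.16 in mutant mock, 8.003 ± 0.28 in wild-type NAC and 8.39 ± 0.04 in mutant NAC, a difference of 0.43 (SE 0.10, adjusted p = 0.242). Hk2, a hexokinase of the first step, differed by -0.26 (SE 0.10, adjusted p = 0.493). Gapdh, Pkm and Tpi1, the brightest of the list, differed by -0.01 (SE 0.08), -0.00 (SE 0.09) and 0.10 (SE 0.08). With NAC over both genotypes 16 were higher and 12 lower, with a median of 0.05. In wild type 20 of the 28 were higher with NAC (10849 of 22180 genes were), with a median of 0.09. At an unadjusted p under 0.05 there were 6 (5.92% of all genes). In the mutant 13 were higher with NAC (11010 of all genes), with a median of -0.02 and 1 at that p (5.86%). For the interaction 11 were higher and 17 lower, with a median of -0.07 and 1 at that p (4.21%). The list was not tested as a set. With NAC over both genotypes Slc16a1, a transporter of lactate and pyruvate, differed by 0.45 (SE 0.10, adjusted p = 0.301) and Pfkp, a phosphofructokinase, by 0.40 (SE 0.11, adjusted p = 0.4). The list of pyruvate entry into mitochondria names subunits of pyruvate dehydrogenase but also Pdk3 and Pdk4, kinases of the same family as Pdk1 and Pdk2. Its counts thus mix genes that favour this entry with genes that oppose it, and give no direction for the entry itself. Of its 12 measured genes 11 were higher in the mutant over both treatments, with a median of 0.09. In mock 7 of the 12 were higher, with a median of 0.03, and in NAC 11, with a median of 0.21. The count over both treatments was 8 without replicate 3 of wild-type mock, of mutant mock, or without replicate 1 of wild-type NAC. With NAC over both genotypes 8 were higher, with a median of 0.07. Dld, a subunit of the complex that the kinases Pdk1 and Pdk2 act on, differed by 0.27 (SE 0.10, adjusted p = 0.423) between genotypes and by 0.28 (SE 0.10, adjusted p = 0.521) with NAC. Dlat and Pdhb, subunits of the same complex, differed by 0.20 (SE 0.15) and 0.20 (SE 0.10) between genotypes, Cs, citrate synthase, by 0.19 (SE 0.11), and Pcx, pyruvate carboxylase, by 0.17 (SE 0.08) at a mean signal under the median gene level.

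The genes whose signal over the 12 arrays was most like that of the 3 most variable members were named from 11090 genes over the median gene level, as a description of 12 arrays that share 4 groups. For Pdk2 these were Cavin1 (r = 0.904), Pacs2 (0.898) and Ubac2 (0.895), for Pdk1 they were Nsmce4a (0.929), Ap2m1 (0.883) and Klhl25 (0.882), and for Foxo1 Xab2 (0.893), Psd3 (0.862) and Fgf17 (0.858).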

How the data were processed

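Gene expression was measured on 12 Affymetrix arrays, 3 for each of 4 groups by genotype and NAC. The authors deposited log2 signals. Per the submitters' processing notes these came from RMA (background correction, quantile normalization and probe set summaries) in Affymetrix Power Tools, whose version the notes do not give. The base of the logarithm was taken from the range of values, 0.74 to 13.23. Of 41345 probe sets, 23521 had 1 gene symbol, 1814 had several and 16010 had no annotation here. Of the first, 23328 matched the GRCm38.p6 gene table, and 0 symbols changed. For each of 22180 genes the brightest probe set was used, and dim genes stayed in.

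All arrays entered 1 model of group means in limma 3.58.1 (lmFit, eBayes; R 4.3.3), with Benjamini-Hochberg adjustment over all genes within each of 7 comparisons at 0.05. Intervals are 95% intervals of the moderated statistic and are not adjusted for many genes. The procedure was tested for bias and interval coverage on simulated data with independent noise per gene and a genotype effect only. Those data held no array effects and no NAC effect. The members and lists were chosen with earlier results of these data known. Named list genes are the 3 with the highest mean and the 2 with the largest moderated t for genotype and for NAC. Sod2 and Cat were added after their values were seen. Nothing in the labels says that replicate numbers pair the samples, and they were not used as pairs in the main model. Same-numbered arrays of different groups had deviations that correlated at -0.06 to 0.06. With 3 arrays per group this does not exclude pairing. Precision is limited by how many arrays there are, and no scan date or other batch is given. The alternatives tried are listed in the closing section; those on lists and on other probe sets were added after seeing the data. Figures used matplotlib 3.10.9 in Python 3.11.15.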

Additional observations from a re-analysis of the deposited data

How the results depend on the processing

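In all 7 comparisons the count of the 10 genes past the threshold was 0 under each of 11 alternatives and without each of the 12 arrays in turn. The alternatives were a filter at the median gene level (which leaves Epas1 out), array weights, median centring, a trend with robust variance, a new quantile normalization, averaged probe sets of a gene, all probe sets, a block for the replicate number, only the groups compared (4 comparisons), an adjusted p under 0.10 and leaving out both arrays of lowest weight. The lowest adjusted p of any gene was 0.311, for Pdk2 with NAC over both genotypes. With the replicate block 0 of the 10 genes passed in each comparison, and its count over all genes was 1 in place of 2 for the genotype in mock and over both treatments. Of 1573 recomputed values, 34 moved by their standard error or more, 20 of them without a single array. A sign was followed only where the main difference exceeded its standard error, and 3 such values reversed, all of Foxo1: to -0.10 for the genotype in NAC and -0.03 over both treatments with the mean of its probe sets, and to -0.015 over both treatments without both arrays of lowest weight. Counts over all genes ranged from 1 to 12 for the genotype over both treatments (12 at an adjusted p under 0.10), 0 to 4 in mock, 0 to 5 in NAC, 0 to 3 for NAC in the mutant, 1 to 5 in wild type, 1 to 4 over both genotypes and 0 to 2 for the interaction; the cause was not tested. Standard errors of a difference of 2 groups, with a median of 0.16, limit what can be seen.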

Other observations

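Of the probe sets used, the residual SD within groups was lowest for those of Slc2a1 (0.11), Pgk1 (0.12) and Ldha (0.15), where 9.14%, 11.6% and 22.5% of all genes had a lower value, and highest for Pdk1 (0.49), Pdk2 (0.44) and Foxo1 (0.36), where 97.2%, 95.8% and 90.5% did. This order belongs to the probe sets and not to the genes: the other probe set of Pdk1 had an SD over the 12 arrays of 0.13 against 0.45 for that used, and the other of Slc2a1 had 0.29 against 0.14. The 4 genes with a second single-symbol probe set showed correlations between both probe sets of 0.48 for Hif1a, 0.34 for Pdk1, 0.18 for Slc2a1 and -0.0049 for Foxo1 over the 12 arrays, as a description. A further probe set of Hif1a, shared with S100a11-ps, had signals of 3.17 to 3.73.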
